A study of Drosophila melanogaster with 8 samples.

Results

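A set of 10 genes was followed in RNA of the adult Malpighian tubule of Drosophila melanogaster, an excretory organ that contains no germline cells. Of these genes, 9 are best known from the germline and the egg. The genes were chosen by CG number, FlyBase's gene identifier: they are 10 of the 13942 genes in the data, and all of them had enough reads to be tested. They are the maternal thioredoxin gene dhd (CG4193), the patterning genes osk (CG10901), nos (CG5637), bcd (CG1034) and grk (CG17610), the egg activation kinase gene png (CG11420), the piRNA pathway genes aub (CG6137) and piwi (CG6122), the germline differentiation gene bam (CG10422), and CG9096. The last was listed under the name plu, but the annotation used here gives it as CycD, a cyclin of the G1 phase of the cell cycle. It is called CycD here, and the gene that the annotation names plu (CG9183) is described apart.

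During oogenesis the nurse cells make RNA and protein that are loaded into the oocyte, and the embryo uses these stores before its own genome is active. Localized osk, nos, bcd and grk RNA set the axes of the egg and embryo. At egg activation the PNG kinase complex (png, plu and gnu) switches on the translation of stored RNA, while piRNA proteins such as Piwi and Aubergine silence transposons in the germline, and bam starts the differentiation of germline stem cell daughters.

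Poly(A) RNA was sequenced from tubules of European males, African males, European females and African females, with 2 biological replicates in each of these 4 groups. The European flies came from the Netherlands and the African flies from Zimbabwe. Each population was a set of isofemale lines, each founded by 1 wild female, whose tubules were pooled before extraction, so that a library is an average over lines and gives no value for a single line. All flies were untreated, kept at 22° with 14 h of light and 10 h of dark, and aged 2 to 4 days according to the sample labels. The paper states an older age range and carbon dioxide in place of ice as the anesthetic.

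The libraries held between 19528634 and 27099855 reads assigned to genes. Markers of both main tubule cell types were present in every library. The 16 principal cell genes summed to 11697 to 13564 RPKM (reads per kilobase of transcript scaled to mapped reads) in males and 12478 to 16051 RPKM in females. The 8 stellate cell genes summed to 599 to 643 RPKM in males and 562 to 609 RPKM in females. Genes of neighboring tissues were present as well, and their sums stand beside the results they touch. Both African male libraries stood apart in midgut enzyme genes, which summed to 4384 RPKM in African males 1 and 1474 RPKM in African males 2, against 84.5 to 196 RPKM in the other 6 libraries. Fewer cells of a type and less RNA per cell cannot be told apart in these data.

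The comparison of the sexes asked which genes were male-biased or female-biased in the tubule. Of the 10 genes, 3 were female-biased (dhd, osk and bam) and 0 were male-biased. The paper had reported dhd and osk among its most female-biased genes from these same libraries. Since the 10 were chosen with such results known, counts of them here and below are not independent of those results. Of all 12580 genes tested, 4.12% were called higher in females and 7.62% higher in males, with limma on log2 values and a Benjamini-Hochberg adjusted p under 0.05. Of the 10 genes, 4 had higher values in every female library than in any male library (dhd, osk, CycD and bam) in deposited RPKM, against 6.88% of all genes tested. After correction for library composition by TMM factors (trimmed mean of M values), as used in the tests, 3 did so (dhd, osk and bam), against 5.91% of all genes. The plot of levels by library shows these values.

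**Figure D1:**
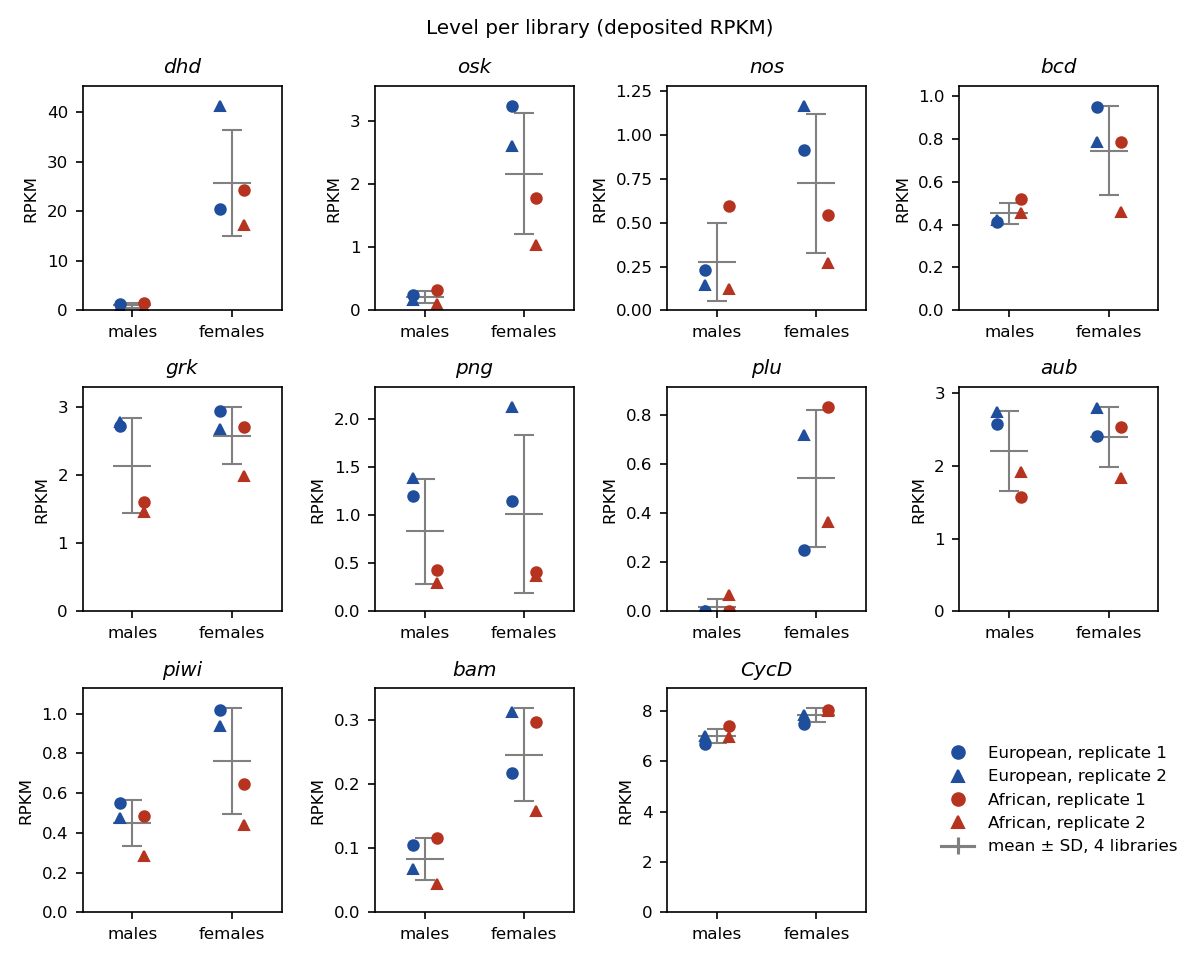
Level of the 10 genes and of plu in each library (y axis, deposited RPKM, from 0; a separate scale for each gene), in males and females. Blue points are European and red points African libraries, circles are replicate 1 and triangles replicate 2, and gray marks give the mean ± SD of 4 libraries. Males and females are far apart for dhd (1.01 against 25.8 RPKM) and osk (0.207 against 2.16 RPKM), and the populations are apart for png.

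The maternal thioredoxin gene dhd, whose product reduces the protamines of the incoming sperm nucleus, was the most abundant of these genes in females and had the largest sex difference. It had 1.29 and 0.779 RPKM in European males and 1.53 and 0.428 RPKM in African males. It had 20.5 and 41.2 RPKM in European females and 24.3 and 17.2 RPKM in African females. All 4 female libraries lay above all 4 male libraries. The mean was 1.01 ± 0.498 RPKM in males and 25.8 ± 10.7 RPKM in females (SD, n = 4 each), a female mean 25.6 times the male mean. On the log2 scale the ratio of male over female was -4.57 ± 0.38 (SE), as a difference of log2(RPKM + 0.1), with a limma adjusted p of 0.0015. The call held under each of the 16 alternatives run, with adjusted p between 0.00146 and 0.00978.

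The number of reads behind dhd was 69 in the 4 male libraries and 1892 in the 4 female libraries. In 3 of the 4 groups the replicates differed by more than counting error, and in European males (20 and 14 reads) they did not. European females 2 had 2.01 times the level of European females 1 (95% exact interval 1.76 to 2.30), and African males 1 had 3.59 times the level of African males 2 (1.59 to 9.14). These exact intervals, like those below, cover counting error only. They take reads as independent molecules, which reads are not. Where reads of several libraries are pooled, they also leave out the spread between libraries. The lowest library, African males 2, held 8 reads of the gene.

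Pole plasm is assembled at the posterior of the oocyte by Oskar, the product of osk. This gene had 0.242 and 0.165 RPKM in European males and 0.321 and 0.101 RPKM in African males, against 3.23 and 2.61 RPKM in European females and 1.78 and 1.03 RPKM in African females. The sexes did not overlap, and the European females were the highest libraries. Males averaged 0.207 ± 0.0955 RPKM and females 2.16 ± 0.960 RPKM (SD, n = 4 each), a female mean 10.4 times the male mean. The log2 ratio of male over female was -2.81 ± 0.33 (SE, limma adjusted p = 0.00439), and the gene was called under all 16 alternatives (adjusted p 0.00325 to 0.0222). The annotation places a noncoding transcript, lncRNA:osk, over 2251 of the 2869 exon bases of osk on the same strand, and it is not listed as a gene of its own in the data. Its reads cannot be told apart from those of osk.

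The ratio of dhd to osk, in RPKM, was 4.25 to 5.31 in males and 6.34 to 16.7 in females. The ratio of dhd to grk was 0.281 to 0.954 in males and 6.95 to 15.3 in females, a wider range over the libraries. These ratios share the dhd values and are given as descriptions.

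The gene nos encodes a translational repressor that patterns the posterior of the embryo and maintains germline stem cells. It had 0.233 and 0.146 RPKM in European males and 0.598 and 0.123 RPKM in African males, against 0.916 and 1.16 RPKM in European females and 0.544 and 0.271 RPKM in African females. The sexes overlapped, because African males 1 lay above both African female libraries. That library had 4.86 times the level of African males 2 (95% exact interval 2.11 to 13.0, from 32 and 7 reads). Over both populations the log2 ratio of male over female was -1.13 ± 0.48 (SE), and the gene was not called (limma adjusted p = 0.184). Without African males 1 it was called (log2 -1.62, adjusted p = 0.0279). The same library had the highest eggshell gene sum of the males (42.1 RPKM, against 7.79 to 8.26 RPKM in the other 3) and the highest midgut sum of all libraries (4384 RPKM). The part of either in the value of nos was not tested. The exons of nos overlap those of CG11779 by 269 bases and of Nsun5 by 104 bases on the opposite strand, and the counting was not stated to use strand.

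The anterior determinant gene bcd had 0.411 and 0.424 RPKM in European males and 0.519 and 0.456 RPKM in African males, against 0.949 and 0.786 RPKM in European females and 0.786 and 0.458 RPKM in African females. The sexes overlapped, since African females 2 lay at the level of the males. Its log2 ratio of male over female was -0.56 (95% interval -1.07 to -0.05, limma adjusted p = 0.148).

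The gene grk encodes a TGF-alpha-like ligand that signals from the oocyte to the follicle cells. It had 2.72 and 2.78 RPKM in European males, 1.61 and 1.47 RPKM in African males, 2.95 and 2.68 RPKM in European females, and 2.71 and 1.98 RPKM in African females. The African males were the lowest libraries, and the sexes overlapped. Its log2 ratio of male over female was -0.28 (95% interval -0.62 to 0.06, limma adjusted p = 0.271). It shares 212 exon bases on the opposite strand with Akap200, which had 28154 reads against 735 of grk.

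Of the PNG kinase complex, png itself encodes the catalytic subunit. It had 1.20 and 1.39 RPKM in European males and 0.433 and 0.296 RPKM in African males, against 1.15 and 2.12 RPKM in European females and 0.413 and 0.370 RPKM in African females. The sexes overlapped, and every European library lay above every African one. For sex its log2 ratio was -0.16 (95% interval -0.66 to 0.35, limma adjusted p = 0.703).

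The regulatory subunit gene plu differed from png in this respect. No read of plu was found in either European male library or in African males 1, and 1 read was found in African males 2 (0.0670 RPKM). A count of 0 allows a level of up to 3 reads, which is 0.242, 0.209 and 0.214 RPKM in European males 1, European males 2 and African males 1. In females it had 0.249 and 0.719 RPKM in the European libraries (3 and 12 reads) and 0.8292 and 0.365 RPKM in the African libraries (10 and 6 reads). All female libraries lay above all male libraries, but at these counts the female level closest to the males was itself at 3 reads. Scaled by library size, females had 30.2 times the level of males, with a 95% exact interval of 5.03 to 1230. The log2 ratio of male over female was -2.36 ± 0.35 (SE, limma adjusted p = 0.00888), and it was called under all 15 alternatives in which it could be tested (adjusted p 0.00819 to 0.0341). With male levels at or near 0 the size of this ratio depends on the 0.1 RPKM added, and it ran from -4.85 to -0.58 over the alternatives.

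CycD, whose product drives cell growth and entry into the cell cycle, varied least over the libraries. It had 6.68 and 7.01 RPKM in European males and 7.37 and 6.96 RPKM in African males, against 7.45 and 7.84 RPKM in European females and 8.04 and 7.97 RPKM in African females. In these deposited values all female libraries lay above all male libraries by a small margin, and the female mean was 1.12 times the male mean. After TMM scaling the sexes overlapped, with 7.46 and 7.51 RPKM in African males against 7.18 RPKM in European females 1. The difference did not pass the test over all genes (log2 -0.13 ± 0.05 SE, limma adjusted p = 0.139).

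Of the piRNA genes, aub encodes a cytoplasmic Argonaute protein that cuts transposon RNA. It had 2.57 and 2.74 RPKM in European males, 1.57 and 1.91 RPKM in African males, 2.41 and 2.80 RPKM in European females, and 2.53 and 1.83 RPKM in African females. The sexes overlapped, with a log2 ratio of male over female of -0.11 (95% interval -0.46 to 0.23, limma adjusted p = 0.692).

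The nuclear Argonaute gene piwi, which acts in germline and ovarian somatic cells, had 0.550 and 0.475 RPKM in European males and 0.486 and 0.282 RPKM in African males. It had 1.02 and 0.937 RPKM in European females and 0.648 and 0.439 RPKM in African females. African females 2 lay among the males and the other females above them. The log2 ratio of male over female was -0.60 (95% interval -1.07 to -0.13), and its unadjusted p of 0.0191 became 0.102 after adjustment over all genes (limma). The exons of piwi overlap those of SCAR by 191 bases, and those of aub overlap TTLL4A by 79 bases, in both cases on the opposite strand.

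The gene bam was the lowest of the 10, with 57 reads in all. It had 0.105 and 0.0681 RPKM in European males and 0.116 and 0.0436 RPKM in African males, against 0.216 and 0.312 RPKM in European females and 0.297 and 0.158 RPKM in African females. The sexes did not overlap, with 14 reads in males and 43 reads in females. Females had 2.99 times the level of males after scaling by library size (95% exact interval 1.60 to 5.92). Its log2 ratio of male over female was -0.90 ± 0.22 (SE) with a limma adjusted p of 0.0435, close to the threshold, and only 6 of 15 alternatives called it (adjusted p 0.0415 to 0.122). Its exons share 224 bases with CG11854, which had 13 reads, on the opposite strand.

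**Figure D2:**
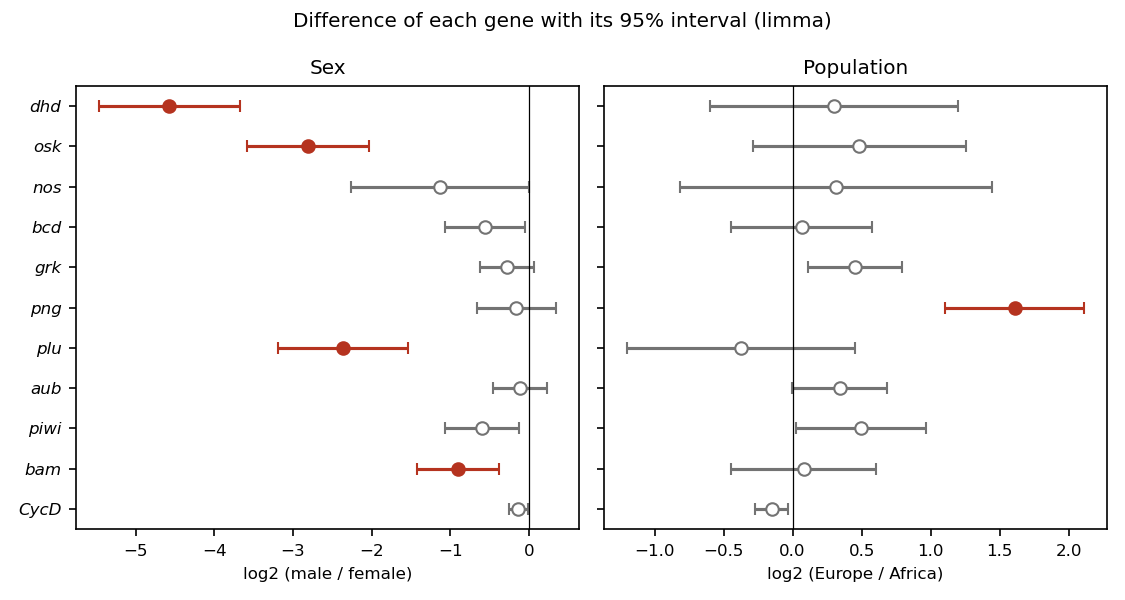
Log2 ratio of male over female (left) and of Europe over Africa (right) for the 10 genes and plu, with 95% intervals (bars) from limma over 8 libraries. Filled red points passed an adjusted p of 0.05 over 12580 genes, and open gray points did not. For sex, dhd (-4.57), osk (-2.81), plu (-2.36) and bam (-0.90) passed, and for population png (1.61) alone passed.

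In males CycD had the highest level of the 11 genes (7.01 ± 0.282 RPKM) and did not overlap with aub, the next gene. All later neighbors in the order overlapped in range: aub, grk, dhd, png, bcd, piwi, nos, osk, bam and plu. In females dhd came first (25.8 ± 10.7 RPKM), followed by CycD (7.82 ± 0.262 RPKM), and neither overlapped with the gene after it. The rest of the order was grk, aub, osk, png, piwi, bcd, nos, plu and bam, in which each pair of neighbors overlapped. The level of dhd stood at the 40.7th percentile of all genes in males and at the 83.2nd percentile in females.

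Within single populations the sexes were compared on 2 libraries against 2. In Europe 3 of the 10 genes were female-biased, against 1.55% of all genes tested: dhd (log2 -4.71, limma adjusted p = 0.00865), osk (log2 -3.30, adjusted p = 0.0078) and nos (log2 -1.97, adjusted p = 0.0283). Leaving out any 1 of the 4 European libraries left 0 genes of the whole table called, these 3 included. In Africa 0 of the 10 passed with limma or with limma-voom, against 0.477% of all genes, while 2 of them, dhd and osk, had an unadjusted p under 0.05, as had 14.3% of all genes. Their African log2 ratios were -4.44 (adjusted p = 0.118) and -2.31 (adjusted p = 0.201). For plu the European difference was -2.38 on the log2 scale, with a limma adjusted p of 0.057 without and 0.042 with the replicate block.

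Whether the sex difference itself differed between populations was tested with the interaction of both factors. With limma, 0 of the 10 genes passed and 0 had an unadjusted p under 0.05, and limma-voom called 0 as well. Of all genes tested, 0.0556% passed, and 7.6% had an unadjusted p under 0.05. The interaction of nos, which was called in Europe, was -1.68 on the log2 scale with a 95% interval of -3.57 to 0.21 (limma adjusted p = 0.711). For dhd it was -0.28 (95% interval -2.22 to 1.67), a wide interval on either side of 0.

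The comparison of populations asked which genes differed between European and African flies. Only png was called among the 10, and it was higher in Europe. Of all genes tested, 6.53% were called higher in Europe and 5.39% higher in Africa. European libraries averaged 1.47 ± 0.448 RPKM of png and African libraries 0.378 ± 0.0605 RPKM (SD, n = 4 each), a ratio of means of 3.88. The log2 ratio of Europe over Africa was 1.61 ± 0.21 (SE, limma adjusted p = 0.00429), and all 16 alternatives called it (adjusted p 0.00316 to 0.0192). The log2 ratio was 1.52 within males (limma adjusted p = 0.11) and 1.70 within females (adjusted p = 0.13). Neither of these tests of 2 libraries against 2 passed.

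The 8 African and European values of png rest on 191 reads. European females 2 had 1.84 times the level of European females 1 (95% exact interval 1.15 to 3.06), and in the other 3 groups the replicates did not differ beyond counting error. Of all genes tested, 13.2% were higher in every European library than in any African one, as png was, and 7.89% after TMM scaling, png among them. Reads were mapped to a reference sequence from a single strain, and sequence differences between the populations at png were not examined here. Principal cell genes also differed between the populations, with sums of 11697 to 12831 RPKM in European and 13426 to 16051 RPKM in African libraries. Of these 16 genes, 0 were called higher and 6 lower in Europe (median log2 -0.24), against 6.53% and 5.39% of all genes tested. The part of this difference in the population results was not tested.

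Among the other 9 genes, grk came closest to the population threshold, with a log2 ratio of Europe over Africa of 0.45 ± 0.14 (SE, limma adjusted p = 0.0899). Without African females 1 it was called (log2 0.58, adjusted p = 0.035). The values were 0.34 for aub (adjusted p = 0.185), 0.49 for piwi (adjusted p = 0.161), 0.48 for osk (adjusted p = 0.391) and 0.30 for dhd (adjusted p = 0.658). CycD had a log2 ratio of -0.15 (adjusted p = 0.104). Within males and within females 0 of the 10 genes passed with limma or limma-voom, against 1.11% and 1.65% of all genes. At an unadjusted p under 0.05 there were 2 genes within males (png and grk), against 18.4% of all genes, and 3 within females (png, osk and nos), against 18.5%.

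Many of the other genes of egg activation were female-biased. Of 18 such genes other than the 10 and plu, 11 were female-biased and 0 male-biased with limma, against 4.12% and 7.62% of all genes, and their median log2 ratio of male over female was -0.76, against 0.01 over all genes tested. The third PNG subunit gene, gnu, averaged 0.266 ± 0.0692 RPKM in males and 1.92 ± 0.426 RPKM in females (SD, n = 4 each; log2 -2.44, adjusted p = 0.0015). The Polo inhibitor gene mtrm averaged 0.339 ± 0.146 RPKM in males and 2.62 ± 1.16 RPKM in females (log2 -2.57, adjusted p = 0.00776). The mitotic cyclin genes CycB and CycA had log2 ratios of -2.38 and -2.005, and wisp, a cytoplasmic poly(A) polymerase gene of the oocyte, had -1.37. The called members also include cell cycle genes that act in any dividing cell (CycA, CycB, CycB3, polo and fzy) and me31B, an abundant RNA helicase gene at 47.6 ± 2.59 RPKM in males and 58.6 ± 3.47 RPKM in females. With single libraries left out, 6 to 10 of the 18 were called, the lowest count without European females 2, and 7 without African females 1, African males 2, European males 1 or European males 2.

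**Figure D3:**
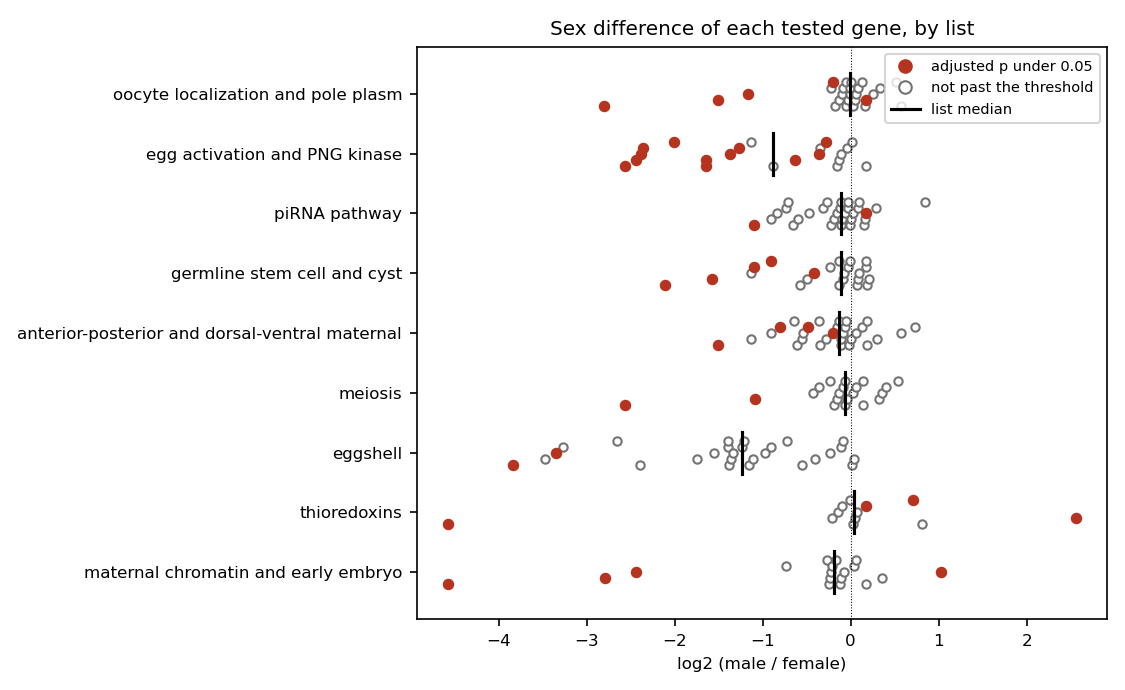
Log2 ratio of male over female (x axis) of each tested gene of 9 lists (rows), with genes called by limma in red and the others as open circles. Black bars give the median of each list, the 10 genes and plu included where a list holds them. The eggshell (-1.24) and egg activation (-0.88) medians lie farthest below 0, and most genes of the other lists lie close to 0.

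Counts for the other maternal and germline pathways are set beside the 7.62% of all genes tested that were male-biased and the 4.12% that were female-biased. Of 25 further genes of oocyte RNA localization and pole plasm, 1 was male-biased (spir, an actin nucleator gene) and 3 were female-biased (swa, BicC and stau), with a median log2 ratio of -0.01. The RNA-binding protein gene BicC averaged 0.184 ± 0.0600 RPKM in males and 0.550 ± 0.160 RPKM in females (log2 -1.17, limma adjusted p = 0.0109). Of 28 further piRNA genes, 1 was male-biased (mino) and 1 female-biased (AGO3, the Argonaute partner of Aubergine, log2 -1.10, adjusted p = 0.0128), with a median of -0.11.

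Of 20 further germline stem cell and cyst genes, 0 were male-biased (7.62% of all genes) and 4 female-biased (4.12% of all genes). Among them were the ovarian differentiation gene otu (log2 -2.11, limma adjusted p = 0.0132), the germline gap junction gene zpg (log2 -1.58, adjusted p = 0.00986) and Sxl, the switch gene of female development in somatic and germline cells alike. Sxl averaged 14.0 ± 0.645 RPKM in males and 30.6 ± 1.98 RPKM in females (SD, n = 4 each). Of 26 further genes of the embryonic axes, 4 were female-biased (swa, stau, and the terminal pathway genes tor and trk). Of 20 meiosis genes, 2 were female-biased (mtrm and sub). The lists share genes, such as swa, stau and mtrm, so their counts are not independent.

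Among 11 other thioredoxin pathway genes, 3 were male-biased and 0 female-biased, against 7.62% and 4.12% of all genes tested. The testis thioredoxin gene TrxT averaged 2.85 ± 1.76 RPKM in males and 0.318 ± 0.0633 RPKM in females (log2 2.56, limma adjusted p = 0.0179), a direction opposite to that of dhd. The other 2 were CaBP1 and Prx5. In the list of maternal chromatin genes, 1 of 17 was male-biased and 2 were female-biased, beside the same shares of all genes. BigH1, the embryonic linker histone gene, averaged 0.184 ± 0.204 RPKM in males and 1.684 ± 0.6997 RPKM in females (log2 -2.79, adjusted p = 0.0174). The maternal nuclear envelope gene fs(1)Ya was male-biased (log2 1.03, adjusted p = 0.0249), at 3.88 ± 0.702 RPKM in males and 1.89 ± 0.480 RPKM in females.

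Eggshell genes, most of which are expressed in the somatic follicle cells of the ovary, were used as markers of ovarian tissue. All 27 were detected in at least 1 library of each sex, and 2 of them (Cp15 and Cp38) were female-biased and 0 male-biased with limma, against 4.12% and 7.62% of all genes tested, while the median log2 ratio of male over female was -1.24. The replicate block left 1 of the 2 calls, and 0 to 5 genes were called with single libraries left out, with 0 without European males 1 or European males 2 and 5 without African females 2. Their summed level was 8.26 and 7.85 RPKM in European males and 42.1 and 7.79 RPKM in African males, against 29.8 and 110 RPKM in European females and 64.9 and 16.7 RPKM in African females. European females 2 was the highest female library for both the eggshell sum and dhd, and African females 2 was the lowest female library for both. African males 1 was the highest male library for both, although its eggshell sum lay above that of 2 female libraries while its dhd level was far below all 4. For osk the order of the female libraries was different, with European females 1 highest, while the male libraries had the same order for all of these. The part of ovarian tissue in these differences was not tested.

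Sums of markers of further tissues also differed between the sexes. The 8 spermatheca and female tract genes summed to 29.2 to 33.2 RPKM in males and 19.7 to 25.5 RPKM in females. Of these 8 genes, 1 was male-biased and 0 were female-biased, against 7.62% and 4.12% of all genes tested. Their median log2 ratio of male over female was 0.055, against 0.01 over all genes tested. The 14 genes listed as fat body markers include the yolk protein genes, and which tissue the yolk protein RNA came from was not tested. The 14 genes together summed to 24.5 to 79.0 RPKM in males and 887 to 1766 RPKM in females. In females Yp1 alone had 378 to 699 RPKM and Yp2 232 to 436 RPKM. Of the 14 genes, 2 were male-biased and 6 female-biased (median log2 -0.75), against 7.62% and 4.12% of all genes tested. The yolk protein genes and fit are among the most female-biased genes that the paper reported from these libraries, so this count is not independent of them. The 51 testis genes summed to 42.0 to 272 RPKM in males and 16.4 to 16.9 RPKM in females. Of the 49 tested, 35 were male-biased, against 7.62% of all genes tested. One of the 51, Mst84Dd, was at 0 in all female libraries. Some genes of this list, such as Mst84Db and S-Lap1, are among the most male-biased genes that the paper reported from these libraries. Part of the count was therefore fixed by the choice of the list. The 30 accessory gland and ejaculatory duct genes summed to 83.1 to 313 RPKM in males and 9.25 to 40.998 RPKM in females, and Acp33A and Met75Cb were at 0 in all 8 libraries. The part of these tissues in the levels of the germline and maternal genes was not tested.

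**Figure D4:**
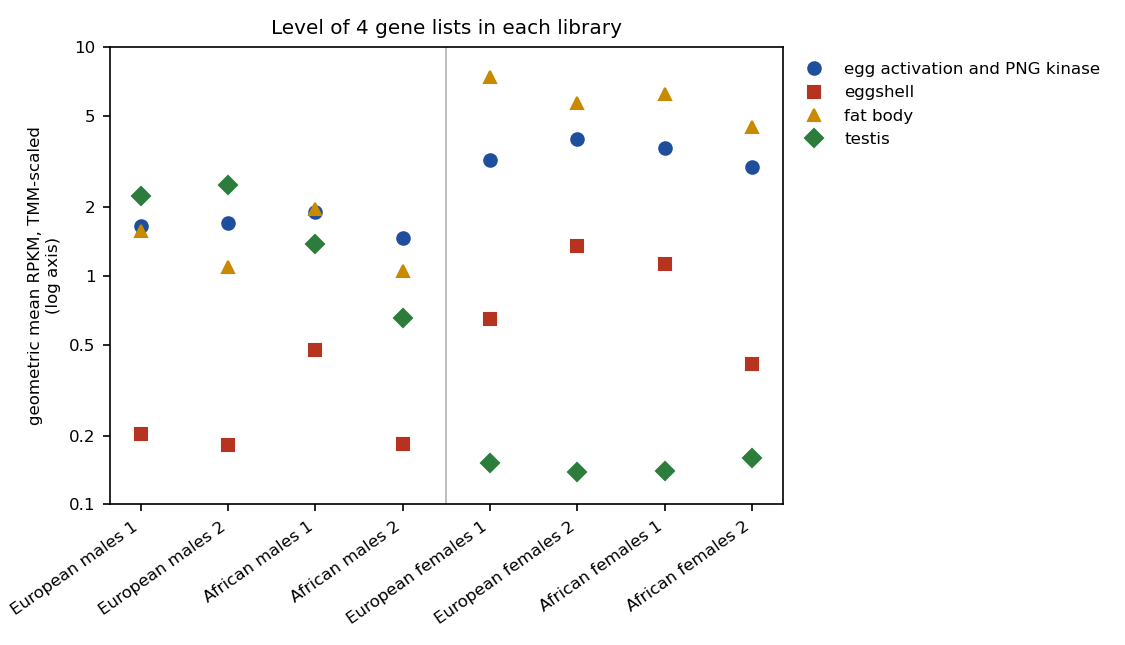
Geometric mean level of 4 gene lists (y axis, RPKM after scaling by library composition, log axis) in each of the 8 libraries (x axis; males left of the gray line, females right). Egg activation genes lie between 1.45 and 1.89 in males and between 2.99 and 3.95 in females, eggshell genes vary most among females (0.409 to 1.35), and African males 1 has the highest eggshell level of the males (0.473).

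The genes with the pattern most like that of dhd over the 8 libraries, by Pearson's r of log2 levels among 9784 genes with at least 100 reads, were CG8180, the yolk protein genes Yp2 and Yp1, and CycA and CycB (r between 0.984 and 0.986). For osk they were CycA, CycB, gwl (the Greatwall kinase gene), Yp2 and alpha-Est2 (0.971 to 0.988). For bam they were WRNexo, BigH1, CG33116, CG14834 and Cdc6 (0.976 to 0.982). The 8 libraries fall into a male and a female cluster for these genes, so these values mainly describe a shared difference between the sexes. Between dhd and osk r was 0.971, and between dhd and png it was 0.195.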

How the data were processed

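The authors mapped single-end reads of 50 bases with NextGenMap 0.4.10 to the transcriptome of FlyBase release 5.54, assigned reads of any isoform to its gene and deposited RPKM over the longest transcript, scaled to the reads on these genes. The deposited gene length was used to work back whole reads, which all values above 0 gave (100%, tolerance 0.01 reads). Coordinates are not given, since the reference annotation is of another build. Of the genes, 13584 were named by gene ID, 261 by CG number and 97 not at all.

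Composition was corrected with TMM factors of 0.927 to 1.04, which trimmed 30% of the log ratios and 5% of the levels. The test was limma 3.58.1 on log2 of the corrected RPKM + 0.1 (R 4.3.3; intensity trend, two-sided, Benjamini-Hochberg over the 12580 genes with at least 12 reads, threshold 0.05). The fit was also run on simulated data with the same dispersion for every gene and no replicate structure. That run does not show the error rate in these data. Sex and population were each fitted with the other. The interaction was fitted in all 8 libraries, and one-factor models in 4. The study used a count model, and the files hold RPKM, so limma was used. With 4 against 4 libraries the smallest exact permutation p is 0.0286, and with 2 against 2 libraries limma pools the spread over genes.

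Same-numbered replicates deviated together in all 6 pairs of groups (r 0.137 to 0.468 over 9785 genes), so the replicate number was also fitted as a block. The labels name no batch, and the libraries were prepared in parallel.

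Gene list levels are geometric means of TMM-scaled RPKM plus 0.1, less 0.1, and sums use deposited RPKM. Genes named were the 10 genes, plu and list members by the smallest adjusted p. Some listed symbols found no match in the data and were left out. These were vas (oocyte localization and piRNA lists), cdc2 (egg activation), benr (germline stem cell and cyst) and mamo (maternal chromatin). The members and lists were chosen with earlier results of these data known. Alternatives were other scalings, pseudocounts (0.01 and 1) and read minimums (1 and 100), voom, no intensity trend, the block, each library left out, and plu in place of CycD. No list p-value was computed.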

Additional observations from a re-analysis of the deposited data

Results flagged for a closer look

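The level of plu in African males 2, 0.0670 RPKM, stood apart from 0 RPKM in the other 3 male libraries, by a gap that was the whole range of the group. That level rests on 1 read, and with 0 in the other 3 libraries any count above 0 would have been flagged. In all, 44 groups of 4 libraries were examined, and chance alone flags some of them.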

How the results depend on the processing

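Over both populations, dhd and osk for sex and png for population kept direction and call under all alternatives run, and plu under those in which it could be tested. The count of the 10 genes higher in females was 3, and 2 to 4 with single libraries left out. That of genes higher in Europe was 1, and 1 to 2. The replicate block changed no call among the 10 genes, and outside them that of plu within Europe (log2 -2.38, adjusted p = 0.042). It left 47 genes for population within females, against 208 without it.

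Counts over all genes changed more. The sex effect (1476 genes) gave 648 to 1351 with single libraries left out and the population effect (1499) gave 816 to 1408. The interaction (7) gave 0 to 9 without single libraries, 2 with library size alone, 1 with voom and 3 with no intensity trend. Sex within Africa (60) gave 0 without any single library, 12 with no filter on reads and 20 with no intensity trend. Sex within Europe (885) gave 0 without any single library, 439 with no filter, 560 with at least 100 reads and 502 with no trend, and its count of the 10 genes, 3, became 0 without any single library. Population within females (208) gave 0 without any single library and with no trend, 107 with a pseudocount of 0.01, 11 with no filter, 362 with at least 100 reads and 485 with voom. Population within males (140) gave 0 to 131 without single libraries, 27 with no filter and 1 with no trend.

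Of alternatives chosen after the data were seen, the eggshell count for sex (2) was 0 with a pseudocount of 1, 1 with at least 100 reads, 1 with no trend, 1 with the replicate block and 0 to 5 without single libraries. The egg activation count (11) was 6 to 10 without single libraries. With plu in place of CycD, also chosen after the data were seen, 4 genes were higher in females, against 3. The count higher in Europe stayed at 1.

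Reversals were all of genes not called. With single libraries left out, log2 ratios for sex ran from -0.18 to 0.00062 for aub, above 0 without African females 1, and from -0.31 to 0.029 for png, above 0 without European females 2. For population they ran from -0.0084 to 0.80 for nos, below 0 without African females 2, from -0.13 to 0.15 for bcd, below 0 without African females 2 or European females 1 (-0.047), and from -0.048 to 0.20 for bam, below 0 without African females 2, African males 2 (-0.023) or European females 2 (-0.0053). The cause was not tested.

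Depth limits plu (32 reads), bam (57), png (191) and nos (216) most.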
